A study of Homo sapiens with 9 samples.

Results

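The resting transcriptome of SaOS2 was read from the 3 untreated control arrays of a study of 9 arrays. SaOS2 is an established human osteosarcoma line with osteoblast-like traits. In the study the line was made to express an antisense RNA to APC under doxycycline, and the control arrays were set against 3 arrays of cells kept for 3 days in doxycycline at 1 µg/ml and 3 arrays of cells grown for 3 further days after withdrawal. All cells were grown in high-glucose medium with 10% serum, G418 at 100 µg/ml and hygromycin at 50 µg/ml. The labels call the control cells untreated and describe only the other groups as transfected, so whether the control cells carry the construct is not stated, although the selection medium was shared. Nothing in the labels says whether the 3 controls came from separate cultures, so the standard deviations (SD) given below hold for these arrays alone and may be technical.

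Osteoblasts are the cells that lay down bone. The factor RUNX2, with its partner CBFB, acts upstream of SP7 (osterix), and these in turn accompany the production of type I collagen, of the phosphatase ALPL, which frees phosphate for mineral, and of the acidic and Gla-containing proteins that bind mineral. Osteosarcomas keep parts of this programme while they divide, and the retinoblastoma gene RB1, which holds back entry into S phase, is often lost in them; SaOS2 is known as a line without functional RB protein.

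A gene was called detected when 1 and the same probe had a detection p, deposited with each signal, under 0.05 on all 3 control arrays. By this rule 11029 of 20046 genes measured were detected, a share of 55.0%, and 7591 genes (37.9%) had no probe detected on any of the 3 arrays. The remaining 1426 genes (7.11%) were detected on 1 or 2 arrays. Counted by probe, 18729 of 47322 (39.6%) passed on all 3 arrays and 24632 (52.1%) on none, and at a detection p under 0.01 the detected genes numbered 9893 (49.4%). Each gene was given the level of its brightest probe, in log2 units of the background-corrected signal, as mean ± SD over n = 3 arrays, and rank 1 is the highest level among the 20046 genes. A rank orders the signals of probes, which also depend on each probe's own binding, so it is no count of transcripts, and a level is an average over the cells of a culture. Detected genes lay between 5.43 and 14.40 with a median of 9.08, and genes detected on no array between 4.48 and 5.37, so a level below about 5.4 gives only an upper bound.

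**Figure D1:**
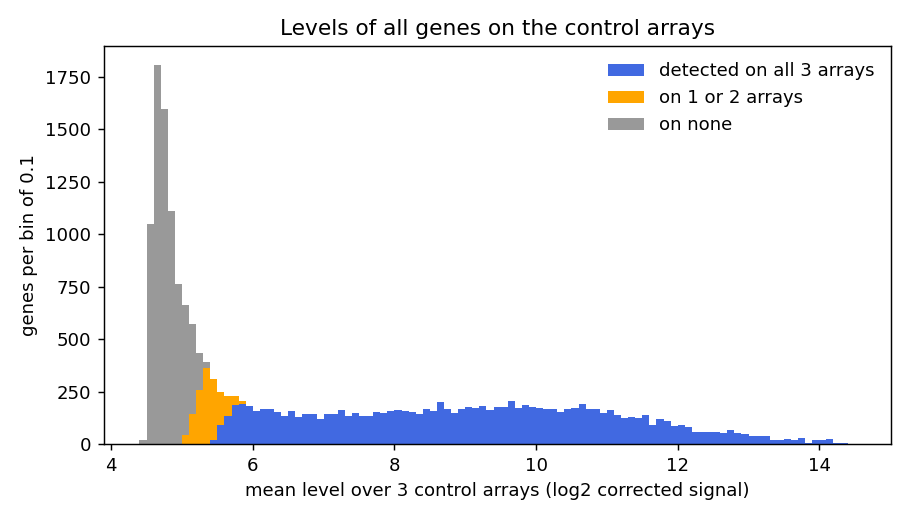
The number of genes (vertical axis) in each bin of 0.1 of mean level over the 3 control arrays (horizontal axis, log2 corrected signal), stacked by detection. The genes detected on no array form a narrow peak between 4.48 and 5.37, while the 11029 detected genes spread from 5.43 to 14.40.

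The threshold cut through a continuum. The 31 genes just inside it had a highest detection p of 0.0494 over the 3 arrays, among them the peptide hormone gene APLN (levels of 5.88, 5.73 and 5.41), the cytidine deaminase gene APOBEC3G (5.63, 5.35 and 5.61) and ASTN2 (5.89, 6.02 and 5.42). The 49 genes just outside had a highest p of 0.0506, among them the adhesion receptor gene ADGRG1 (5.41, 5.91 and 5.55), ANXA2R-OT1 (5.47, 5.55 and 5.40) and ARHGDIG (5.61, 5.88 and 5.39). The levels on the 2 sides of the threshold overlap.

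The 3 arrays differed in brightness before normalization, with mean deposited signals of 667 on control 1, 414 on control 2 and 454 on control 3, and from 20375 to 20995 of 47322 probes were detected on each. After normalization the median SD of a detected gene was 0.112, falling from 0.172 for genes below a level of 6 to 0.081 for genes above 12. The correlation across the 11029 detected genes, which are not independent replicates, was 0.9938 between controls 1 and 2, 0.994 between controls 1 and 3 and 0.9955 between controls 2 and 3.

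The small nuclear RNAs differed between the arrays, with control 1 the lowest by median and control 2 the highest. With provisional gene names left aside, the 6 detected genes with the largest SD were all genes of structural RNAs. They included the U1 and variant U1 spliceosomal RNA genes RNVU1-18, RNVU1-7 and RNU1-3 and the U4 gene RNU4-2. The others were the small nucleolar RNA gene SNORA12 and the 28S ribosomal RNA gene RNA28SN5. RNVU1-18 read 6.87 on control 1 against 8.77 and 8.58 on controls 2 and 3, and RNA28SN5 read 8.59 against 10.20 and 9.72. Of the 11 detected small nuclear RNA genes, 7 were more than 0.5 lower on control 1 than on the mean of the other arrays. The median difference was -0.83, against 0.01 over 10487 protein-coding genes and -0.01 over 102 small nucleolar RNA genes. On control 2, 6 of the 11 were more than 0.5 higher than on the other arrays, with a median difference of 0.83. On control 3 the median difference was 0.31, and 3 were more than 0.5 higher. Copies of these RNAs are nearly identical, so their probes may read one another's transcripts. Their levels are not used further. Without control 1, 11259 genes were detected on both remaining arrays.

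**Figure D2:**
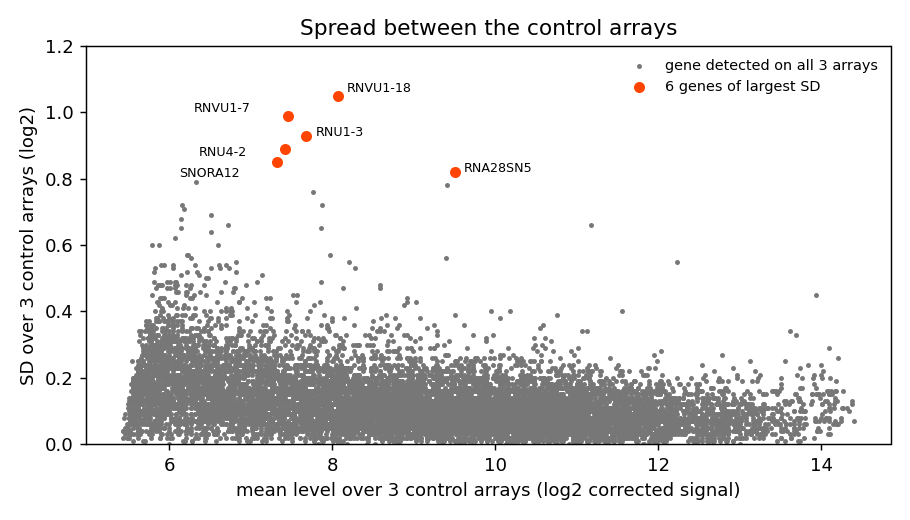
Each point is a gene detected on all 3 control arrays, with its mean level (horizontal axis, log2 corrected signal) and its SD over the 3 arrays (vertical axis, log2). The spread narrows as the level rises. Marked are the 6 genes of largest SD once provisional names are left aside, from 0.82 to 1.05, which are 5 small RNA genes and RNA28SN5.

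The line's named markers were read first. ALPL, tissue-nonspecific alkaline phosphatase, read 14.21, 14.44 and 14.28 on the 3 arrays and held rank 5 of 20046, behind RPL41, EEF1A1, TPT1 and TMSB4X. Its rank on the single arrays was 15, 3 and 12, and it was 10 without control 2 and 4 without either of the others, so its exact place among the highest genes is not settled, but it was among the 15 highest on each. RUNX2 read 11.44, 11.69 and 11.78 (rank 1312), and its other probe was also detected, at 7.09. SP7 read 11.23, 11.48 and 11.46 (rank 1629). All 3 arrays thus carried high signals for the enzyme and both factors.

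RB1 was detected on none of them. Its only named probe (ILMN_1696591) read 4.86, 4.67 and 4.68, with detection p of 0.3078, 0.6234 and 0.6091, inside the range of undetected genes, and it was also undetected on the other 6 arrays of the study. The label of an osteoblast-like line was met by the first 3 markers, and the fourth had no signal above background. Where on the RB1 transcript that probe lies was not analysed here.

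Of the 15 osteoblast transcription factors measured, 13 (86.7%) were detected on all 3 arrays, against 55.0% of all genes. The stress and osteoblast factor ATF4 (12.94 ± 0.04, rank 347) and the homeobox factor DLX5 (12.79 ± 0.09, rank 427) had the highest signals of the list. TWIST1, a restraint on osteoblast maturation, followed RUNX2 at 11.56 ± 0.05, and CBFB, the binding partner of RUNX2, stood at 11.04 ± 0.12, although its other probe was not detected. The homeobox genes MSX1 (10.51 ± 0.12), DLX3 (9.20 ± 0.21), MSX2 (9.04 ± 0.08) and DLX6 (7.55 ± 0.10) were all detected. So were the AP-1 genes FOSL2 (8.53 ± 0.14), JUNB (7.27 ± 0.13) and FOSL1 (6.14 ± 0.17). TWIST2 (4.77, 4.80 and 4.96) and the zinc finger gene ZNF521 (4.50, 4.59 and 4.48) were detected on none.

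The matrix and mineral genes of the osteoblast were split. Of 18 measured, 11 (61.1%) were detected on all 3 arrays, against 55.0% of all genes, with 3 on 1 array and 4 on none. Both chains of type I collagen, the main protein of bone, had high signals: COL1A2 read 13.46, 13.17 and 13.24 (rank 199) and COL1A1 read 13.19, 13.30 and 13.35 (rank 204). BAMBI, a decoy receptor that dampens TGF-beta family signals (12.56 ± 0.14), osteoblast cadherin CDH11 (11.95 ± 0.06) and the phosphate importer SLC20A1 (11.47 ± 0.06) came next. Bone sialoprotein IBSP read 10.09, 10.26 and 10.32, the osteoblast membrane protein IFITM5 stood at 10.04 ± 0.06 and osteonectin SPARC read 9.87, 9.93 and 10.10. ENPP1, which makes the mineral inhibitor pyrophosphate (7.78 ± 0.06), and SLC20A2 (7.16 ± 0.11) were lower in signal.

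Among the genes without signal on all 3 arrays, BGLAP, which encodes osteocalcin, read 5.23, 5.11 and 5.08 with detection p of 0.0883, 0.126 and 0.1481. Osteopontin SPP1 was not detected with either of its probes, of which the brighter read 5.17, 4.91 and 4.86. The phosphatase gene PHOSPHO1 (5.09 ± 0.06) and the pyrophosphate transporter gene ANKH (4.81 ± 0.22) were also detected on none. The matrix Gla protein gene MGP was detected on control 3 only, and the small proteoglycan genes OMD and OGN on control 2 only.

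The sequences just before the transcription start of 4 of these genes are shown because they set the highest-ranked osteoblast gene and RUNX2 beside 2 undetected ones; they were chosen with their values known. They come from RefSeq on build GRCh38.p14, run 5′ to 3′ on the gene's strand, which is the plus strand in each, and end at the base before the start: chr1:21508734-21508983 for ALPL, chr6:45328080-45328329 for RUNX2, chr1:156241934-156242183 for BGLAP and chr4:87975464-87975713 for SPP1. Capitals mark the motif AACCACA, a core letter string bound by RUNX factors, searched on both strands.
ALPL: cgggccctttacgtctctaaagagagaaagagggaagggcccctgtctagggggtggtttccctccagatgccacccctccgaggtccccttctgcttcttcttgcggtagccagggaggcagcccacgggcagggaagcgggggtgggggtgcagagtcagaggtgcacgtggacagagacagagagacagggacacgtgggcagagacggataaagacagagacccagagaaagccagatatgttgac
RUNX2: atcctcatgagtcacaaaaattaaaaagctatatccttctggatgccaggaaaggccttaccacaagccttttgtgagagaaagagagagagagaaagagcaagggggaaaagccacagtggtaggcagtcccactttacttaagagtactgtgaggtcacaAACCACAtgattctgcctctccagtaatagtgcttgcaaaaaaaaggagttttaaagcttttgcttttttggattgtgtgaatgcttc
BGLAP: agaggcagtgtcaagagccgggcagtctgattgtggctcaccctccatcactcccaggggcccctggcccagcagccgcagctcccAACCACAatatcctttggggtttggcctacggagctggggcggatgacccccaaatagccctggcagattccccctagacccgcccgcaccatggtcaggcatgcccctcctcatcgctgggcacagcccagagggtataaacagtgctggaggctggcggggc
SPP1: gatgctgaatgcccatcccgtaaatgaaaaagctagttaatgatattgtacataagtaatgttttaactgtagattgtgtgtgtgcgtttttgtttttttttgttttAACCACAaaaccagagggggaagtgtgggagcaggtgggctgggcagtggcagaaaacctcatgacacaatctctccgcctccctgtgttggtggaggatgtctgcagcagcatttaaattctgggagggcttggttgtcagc
The windows of RUNX2, BGLAP and SPP1 held 1 match each, starting 88, 164 and 143 bases before the start, and that of ALPL held none. The string stood in 3.65% of all 35116 promoter windows, many of them of genes not measured here, and in 2.44% of the 9000 windows of detected genes. Windows were at hand for 28 of the 42 osteoblast and osteocyte genes measured, too few for a check of the lists, which is void. Of these, 4 held the string, the fourth being the osteocyte gene DMP1. The others held none, the undetected PHOSPHO1 and ANKH among them. A match is a description of the letters and no sign of binding.

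Among 9 osteocyte genes measured, 4 (44.4%) were detected, against 55.0% of all genes. SOST, which encodes the Wnt inhibitor sclerostin, read 7.90, 7.82 and 7.71 with 1 probe and was not detected with its other one. The matrix phosphoglycoprotein gene MEPE read 8.51, 8.46 and 8.70, FBLN7 8.57, 8.59 and 8.73, and the phosphate hormone gene FGF23 6.42, 6.05 and 5.95. The other FGF23 probe, at 4.95, was detected on no array. The detected FGF23 probe had a detection p of 0.0143 on control 3, and at a detection p under 0.01 the list count was 3. The matrix protein gene DMP1, the endopeptidase gene PHEX, PDPN and RELN were detected on no array, and CAPG on control 2 only.

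**Figure D3:**
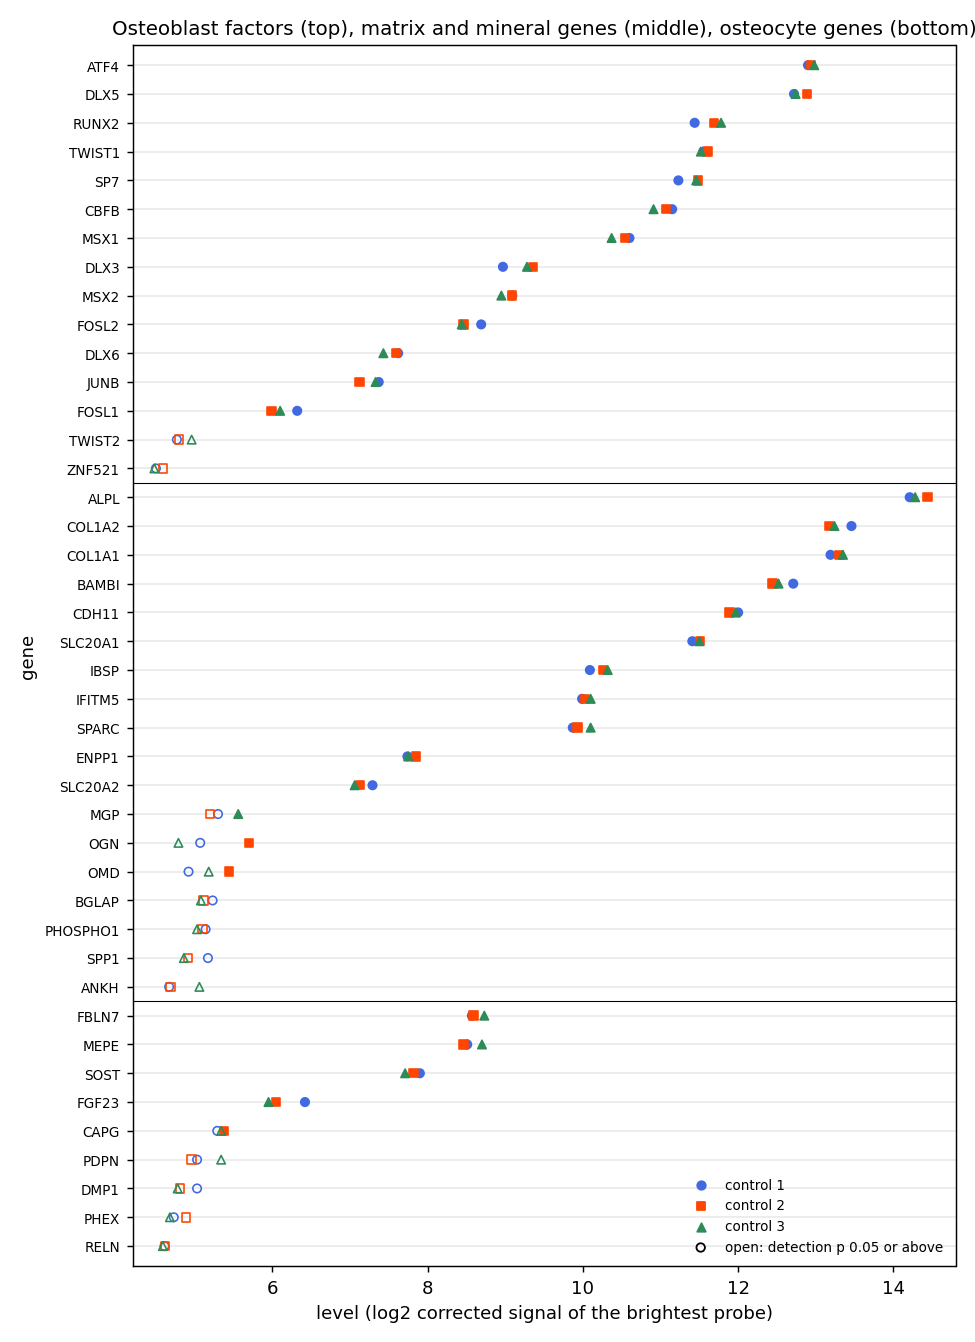
Levels of the osteoblast transcription factors (top), osteoblast matrix and mineral genes (middle) and osteocyte genes (bottom) on each control array (horizontal axis, log2 corrected signal of the brightest probe), with open symbols where the detection p was 0.05 or above. ALPL lies farthest right at 14.31, and the 4 undetected matrix and mineral genes, BGLAP, PHOSPHO1, SPP1 and ANKH, have means at or below 5.14.

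Osteoblasts steer osteoclasts, the bone-resorbing cells, through secreted signals, and 9 of 12 such genes (75.0%) were detected, against 55.0% of all genes. The decoy receptor osteoprotegerin, TNFRSF11B, read 12.25, 12.14 and 12.11 (rank 800), while the ligand it blocks, TNFSF11 (RANKL), was detected on 2 of 3 arrays at 5.56, 6.18 and 5.38. The Eph receptor gene EPHB4 (10.16 ± 0.17) and the cytokine IL6 (10.24, 9.67 and 9.72) had signals well inside the detected range. IL11 (7.66 ± 0.25), WNT5A (7.46 ± 0.15) and SEMA3A (7.43 ± 0.16) were lower. The macrophage growth factor CSF1 was detected with none of its 3 probes, and WNT16 with none of its 2.

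Of 37 collagen chains outside type I, 15 (40.5%) were detected, a smaller share than over all genes, and 17 were detected on none. The type V chains, which assemble with type I fibrils, led: COL5A2 read 13.67, 14.04 and 14.00 (rank 75) and COL5A1 read 13.91, 13.78 and 13.72 (rank 82). COL12A1 (11.67 ± 0.18), COL8A1 (11.40 ± 0.11), COL7A1 (10.72 ± 0.04) and COL11A1 (10.69 ± 0.06) followed. The type III chain COL3A1, abundant in soft connective tissue, was close to the threshold at 5.66, 5.63 and 6.03. The cartilage chain COL2A1, the basement membrane chains COL4A1, COL4A3, COL4A4, COL4A5 and COL4A6, and COL5A3 and COL6A3 were detected on no array.

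Enzymes that fold and modify collagen were mostly detected, 18 of 24 (75.0%) against 55.0% of all genes. Their median rank was 3858 against 10023 over all genes. The lysyl hydroxylases PLOD1 (13.52 ± 0.09), PLOD2 (13.13 ± 0.14) and PLOD3 (12.77 ± 0.11), the prolyl hydroxylase subunits P4HB (13.41 ± 0.09) and P4HA2 (12.41 ± 0.08) and the enhancer of procollagen cleavage PCOLCE (12.19 ± 0.08) had the highest signals. The cross-linking oxidase LOX read 4.86, 4.54 and 4.80, and neither it nor LOXL2, P4HA3, ADAMTS2 or ADAMTS14 was detected.

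Of 33 other matrix genes, 16 (48.5%) were detected, against 55.0% of all genes. Lumican, LUM, a small proteoglycan of collagen fibrils, read 13.90, 14.39 and 14.31 and held rank 12, with its other probe at 10.95. Its rank was 74, 4 and 10 on the single arrays, and it was 5 without control 1, 30 without control 2 and 19 without control 3. Control 1 was the lowest of the 3 for LUM, and its SD of 0.26 was above the median of 0.112. Decorin DCN (13.01 ± 0.08), thrombospondin THBS2 (12.98 ± 0.07), the laminin chain LAMC1 (12.84 ± 0.10), tenascin TNC (12.51 ± 0.06) and LAMB2 (10.94 ± 0.04) came after it. Fibronectin, FN1, was detected with 0 of 3 probes on all arrays, its brightest reading 5.56, 5.19 and 5.33. ACAN, FMOD, FBN1, POSTN, TNXB, SPON2, LAMA1 and LAMA2 were detected on none.

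The highest signals of the matrix protease list were those of 2 inhibitors. TIMP2 read 14.07, 13.54 and 13.45, and TIMP1 read 13.54, 13.50 and 13.49, while TIMP3 was not detected. Among the 28 genes of this list 14 (50.0%) were detected, against 55.0% of all genes. The lysosomal proteases CTSL (11.73 ± 0.09) and CTSB (9.92 ± 0.10), the urokinase receptor PLAUR (8.80 ± 0.24) and the membrane protease MMP16 (8.34 ± 0.06) came next. The secreted proteases MMP2 and MMP11 were detected, at 7.89 and 6.66. MMP1, MMP3, MMP7, MMP8, MMP9, MMP10, MMP12 and MMP13 were detected on no control array. MMP13 was the only gene of this list detected on no control array and on all 6 other arrays. Over all genes this held for 24 of the 7591 detected on no control array (0.316%), and a difference in level was not tested.

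Cells hold the matrix through integrins, of which 16 of 26 (61.5%) were detected, near the 59.0% of protein-coding genes and the 55.0% of all genes. The beta-1 chain ITGB1 (13.70 ± 0.08, rank 111), ITGB5 (13.03 ± 0.05), the alpha-V chain ITGAV (11.70 ± 0.16), ITGB2 (11.46 ± 0.17), ITGA3 (10.98 ± 0.06) and ITGA5 (10.68 ± 0.05) had the highest signals. ITGB2, best known as the beta chain of leukocyte integrins, was detected with both probes, at 11.46 and 11.24. Its leukocyte partners ITGAL, ITGAM, ITGAX and ITGAD were detected on no array, as were ITGA2B, ITGA8, ITGB3 and ITGB6.

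Receptor tyrosine kinases were detected at about the share of all genes (55.0%), 30 of 55 (54.5%), and below that of protein-coding genes (59.0%). AXL, the receptor of GAS6, read 12.90, 12.70 and 12.92 (rank 387). RYK (11.63 ± 0.07), ERBB2 (11.57 ± 0.06), EPHA2 (11.06 ± 0.02), FGFR3 (10.33 ± 0.06) and PTK7 (10.26 ± 0.09) followed, although only 1 of the 3 ERBB2 probes was detected. ERBB4, INSRR, PDGFRB, FLT3, FLT1, KDR, FLT4 and FGFR2 were detected on none.

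Receptors for bone hormones and morphogens were detected more often, 26 of 35 (74.3%). The BMP type I receptor ACVR1 (11.22 ± 0.10), BMPR2 (10.37 ± 0.11), TGFBR2 (10.06 ± 0.07) and the growth hormone receptor GHR (10.04 ± 0.01) had the highest signals. PTH1R, the parathyroid hormone receptor of osteoblasts, read 9.85, 9.94 and 10.13, and the Hedgehog transducer SMO stood at 9.79 ± 0.06. The receptors PTH2R, CALCR for calcitonin, CASR for calcium, ACVR2B, ACVRL1 and NOTCH4 were detected on no array.

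Of 40 nuclear receptors measured, 24 (60.0%) were detected, near the 59.0% of protein-coding genes and the 55.0% of all genes. The retinoid receptors RXRA (11.06 ± 0.04), RXRB (10.65 ± 0.08), RARB (10.06 ± 0.12) and RARA (9.87 ± 0.06) led the family, followed by NR2F6 (9.64 ± 0.10) and the clock repressor NR1D2 (9.57 ± 0.13). The sex steroid receptor genes ESR1 and ESR2 were detected on none, nor were THRB, RARG, RORB, NR1I3, NR2E3 and ESRRB.

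Homeobox genes of the HOX clusters keep a record of body position. Of 29 measured, 17 (58.6%) were detected, near the 59.0% of protein-coding genes and the 55.0% of all genes. HOXC6 (11.11 ± 0.07) had the highest signal, although with 1 of its 4 probes, then HOXB2 (9.75 ± 0.12), HOXB7 (9.11 ± 0.10), HOXD11 (8.76 ± 0.13), HOXC4 (8.63 ± 0.17) and HOXB5 (8.50 ± 0.12). Detected members came from the HOXB, HOXC and HOXD clusters, in HOXD from both ends (HOXD1 and HOXD13). Of the HOXA cluster only HOXA2 was measured, and it was detected near the threshold, at 6.02, 5.97 and 5.70. HOXB8, HOXB9, HOXB13, HOXC5, HOXC11, HOXC12 and HOXD12 were detected on none. Of 19 SOX factors only 5 (26.3%) were detected on all 3 arrays, SOX4 (12.27 ± 0.18), SOX18 (11.56 ± 0.08), the cartilage factor SOX9 (8.92 ± 0.12), SOX13 (8.14 ± 0.07) and SOX6 (6.03 ± 0.02). The stem cell factor SOX2 was among those detected on none, with SOX1, SOX3, SOX7, SOX10, SOX11, SOX14 and SOX15.

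Tumour suppressors were mostly detected, 29 of 38 (76.3%) against 55.0% of all genes, with RB1 among the 5 detected on none. The genes of the pocket proteins related to RB1 were detected: RBL2 (p130) read 10.88, 11.02 and 11.14 and RBL1 (p107) read 7.45, 7.31 and 7.37. The other RBL1 probe, at 4.69, was detected on no array. CDKN2A, which encodes the CDK4 inhibitor p16 and the unrelated protein ARF, read 10.38, 10.56 and 10.56 with its brightest probe and was detected with 2 of 3 probes. The p21 gene CDKN1A read 10.55, 10.82 and 10.68, CDKN1B stood at 9.16 ± 0.14, CDKN2D at 9.46 ± 0.12 and CDKN2B at 8.46 ± 0.14. The other probes of CDKN1A (4.68) and CDKN2D (4.69) and 1 CDKN2B probe (4.91) were detected on no array. CDKN1C, an imprinted inhibitor of the same family, was detected on none. Every measured CDK inhibitor gene of this list other than CDKN1C thus had at least 1 probe above background.

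The 3 highest signals among the suppressors belonged to the chromatin regulators SUZ12, ARID1A and SMARCA4. SUZ12 of the polycomb complex stood at 12.48 ± 0.15 with its partner EED at 8.86 ± 0.19, and the remodelling subunits ARID1A, SMARCA4 and SMARCB1 at 12.06 ± 0.16, 12.05 ± 0.17 and 9.47 ± 0.08. SMAD4 (11.55 ± 0.05), VHL (11.18 ± 0.11) and TSC1 (10.79 ± 0.11) followed, then TSC2 (7.51 ± 0.18), STK11 (6.59 ± 0.29) and NF1 (6.39 ± 0.13). The checkpoint and repair genes CHEK1 (10.19 ± 0.14), ATM (9.36 ± 0.09), CHEK2 (9.25 ± 0.08), BRCA1 (8.14 ± 0.03) and PALB2 (8.29 ± 0.11) were detected, and so were the helicase genes BLM (9.13 ± 0.12), WRN (9.05 ± 0.13) and RECQL4 (8.36 ± 0.18). ATR was detected with none of its 3 probes. LSAMP, a cell adhesion gene often deleted in osteosarcoma, read 7.99, 8.01 and 8.15.

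PTCH1 had the widest spread among the detected suppressors, at 6.38, 7.20 and 7.10. APC, the target of the antisense RNA of the study, was detected on control 3 only, at 5.22, 5.13 and 5.78. WWOX, FHIT and WT1 were detected on 2 arrays, NF2 on all 3 at 5.53 ± 0.06 with 1 of 4 probes, and DLG2 and TP73 on none.

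Among oncogenes 25 of 29 (86.2%) were detected, against 55.0% of all genes. CDK4, which p16 inhibits, read 12.95, 12.96 and 13.09 (rank 317), and MYC read 11.90, 11.77 and 11.70, with its other probe at 11.30. COPS3, in a region often amplified in osteosarcoma, stood at 12.34 ± 0.12, the D-type cyclin CCND3 at 12.20 ± 0.07 and JUN at 11.60 ± 0.02. MDM2 was lower, at 7.28, 7.87 and 7.56. MYCN, CCND2 and AKT2 were detected on none.

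The D-type cyclins differed. CCND3 read 12.14, 12.20 and 12.27, whereas CCND1, the cyclin most often named beside beta-catenin, read 5.13, 4.80 and 5.50 with its only probe and passed the threshold on control 3 alone. CCND2 was below it on all 3 arrays. CCNE1, which acts after the RB1 step, read 8.82, 8.67 and 8.72, and CCNE2 was not detected. Of the 25 cyclin and kinase genes 20 (80.0%) were detected, against 55.0% of all genes. CKS1B (12.72 ± 0.03), CKS2 (12.50 ± 0.10), SKP2 (12.14 ± 0.10) and CDK2 (11.84 ± 0.07) had, with CCND3, the highest signals after CDK4. CCNA1 and CCNB3, cyclins mainly of the germ line, were detected on none.

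**Figure D4:**
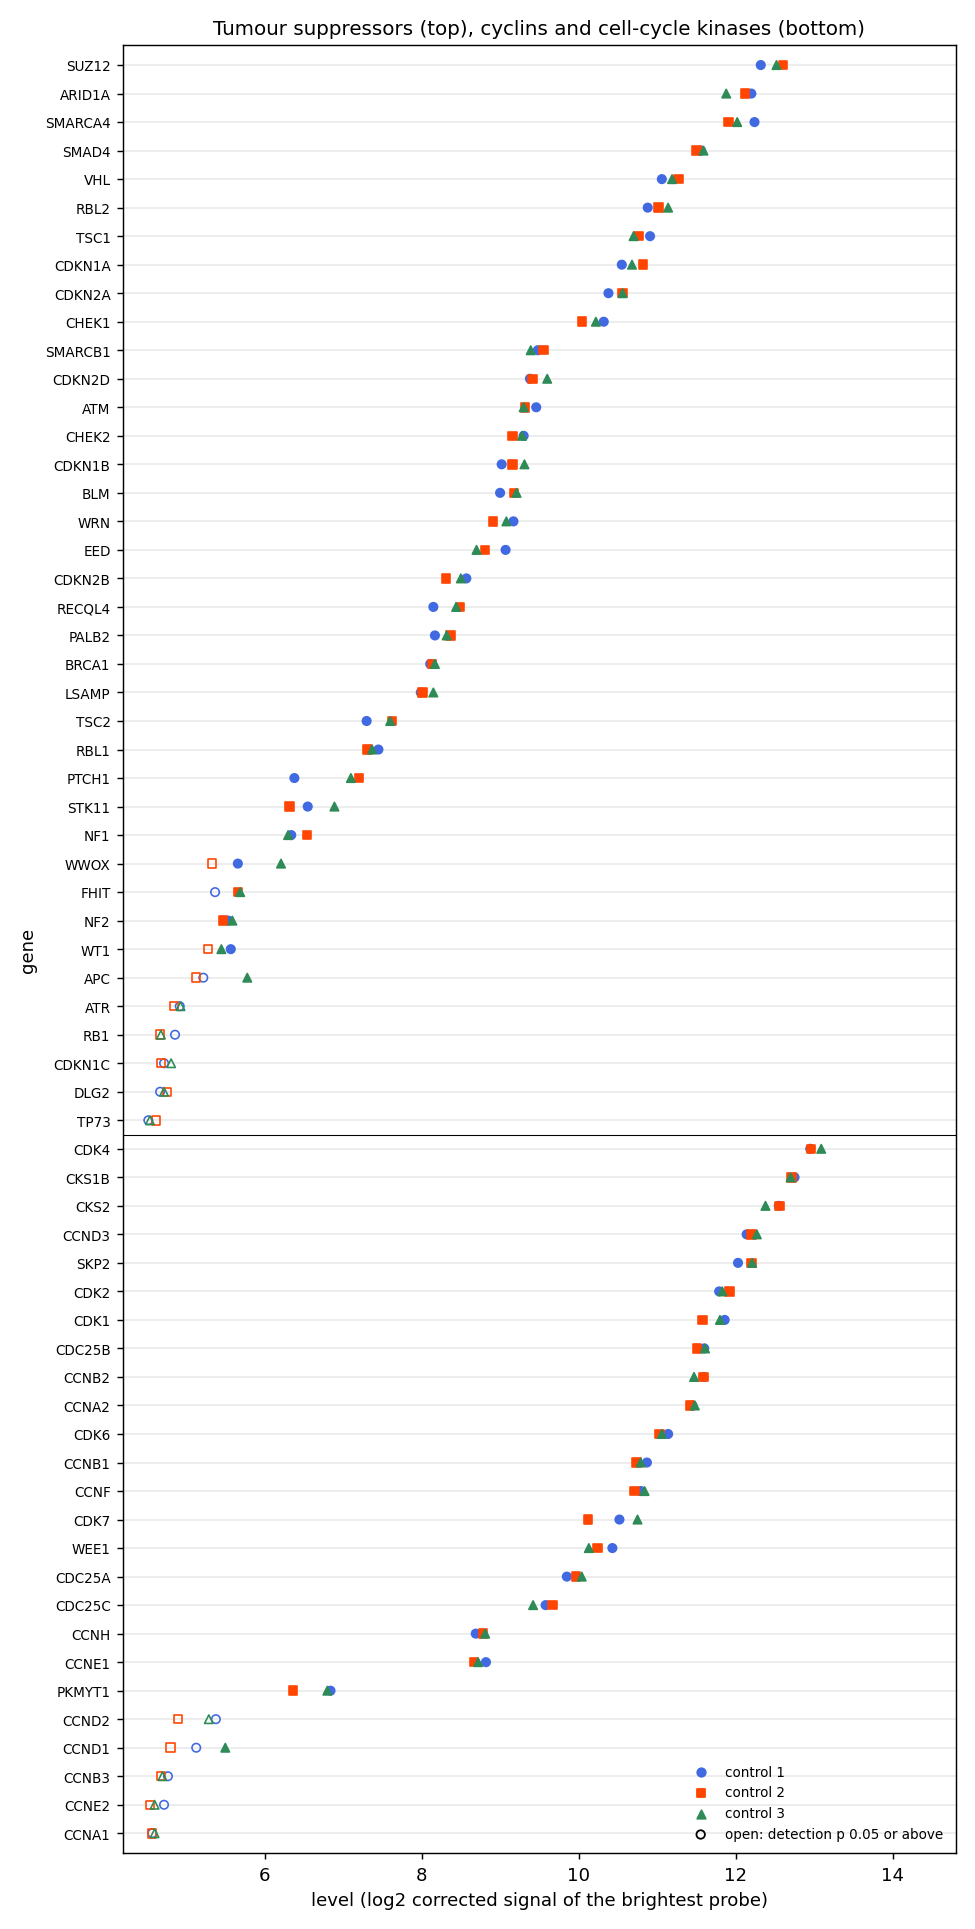
Levels of the tumour suppressors (top) and of the cyclins and cell-cycle kinases (bottom) on each control array (horizontal axis, log2 corrected signal of the brightest probe), with open symbols where the detection p was 0.05 or above. RB1 lies in the background range at 4.74, below RBL2 at 11.01 and CDKN2A at 10.50, and CDK4 and CCND3 lie at 13.00 and 12.20 above CCND1 at 5.14.

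Genes of DNA replication and mitosis were nearly all detected. All 25 mitotic genes passed on all 3 arrays, with a median rank of 1759, and 28 of 29 (96.6%) E2F and S phase genes, with a median rank of 2236. Topoisomerase TOP2A read 12.88, 12.82 and 12.85 (rank 380), NUSAP1 stood at 12.89 ± 0.09, PTTG1 at 12.80 ± 0.07, UBE2C at 12.72 ± 0.09, PRC1 at 12.37 ± 0.08 and CENPF at 12.18 ± 0.06. Ribonucleotide reductase RRM1 (13.15 ± 0.12), the helicase subunits MCM3 (13.15 ± 0.11), MCM7 (12.78 ± 0.05) and MCM6 (12.54 ± 0.07), UHRF1 (12.66 ± 0.04) and the sliding clamp PCNA (12.53 ± 0.09) led the S phase list. MKI67, a widely used protein marker of dividing cells, had the lowest signal of the mitotic list, at 7.55, 7.40 and 7.52. E2F8 was the one S phase gene not detected on all 3 arrays, with 2 of 3.

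Telomere genes were read because some osteosarcomas keep their telomeres without telomerase. TERT, the catalytic subunit of telomerase, was detected with neither probe, the brighter reading 4.49, 4.66 and 4.72. Its RNA template TERC was detected, at 6.40, 5.84 and 6.86, with an SD of 0.51, far above the median. Proteins that bind such RNAs had high signals, dyskerin DKC1 at 13.16 ± 0.08, NOP10 at 13.00 ± 0.03, GAR1 at 11.99 ± 0.07 and NHP2 at 10.70 ± 0.06. The shelterin gene TERF2IP (10.80 ± 0.12) and the repair gene NBN (10.79 ± 0.18) followed. ATRX, a chromatin remodeller, read 7.22, 7.28 and 7.26 with 1 probe and was not detected with its other one, and its partner DAXX stood at 8.23 ± 0.11. Of 24 telomere genes 19 (79.2%) were detected, against 55.0% of all genes, and FANCM, RAD52 and RAD50 were not.

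Of 45 secreted growth factors and antagonists 23 (51.1%) were detected, against 55.0% of all genes. The matricellular proteins CCN1 (14.10, 13.80 and 13.89) and CCN2 (12.74 ± 0.16) led, followed by the BMP antagonist GREM1 (12.58 ± 0.19), the Wnt antagonist DKK1 (11.77 ± 0.03), VEGFB (11.58 ± 0.11) and PDGFC (11.52 ± 0.21). Beside the antagonists, GDF11 read 9.79, 10.30 and 10.20 and BMP6 9.78, 9.91 and 9.94. BMP3 passed near the threshold, at 5.75, 5.84 and 5.87, and BMP2 (9.28 ± 0.12) and BMP4 (7.36 ± 0.27) were detected. BMP5, BMP7, BMP8A, GDF5, GDF6, GDF15, TGFB1 and INHBA were not.

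Cancer-testis genes are normally read in germ cells and silent elsewhere. Of 28 measured, 14 (50.0%) were detected, against 55.0% of all genes and 59.0% of protein-coding genes. SPANXA1 read 13.25, 13.16 and 13.18 (rank 234), MAGEC2 12.40, 12.38 and 12.32, and MAGEA1 11.56, 11.60 and 11.57, each with both probes. MAGEB2 (11.19 ± 0.05), MAGEA12 (11.17 ± 0.12) and MAGEA6 (11.01 ± 0.08) followed. The SPANX and MAGE families hold near-identical copies, so which copy gave the signal is uncertain. The DEAD-box germ cell gene DDX4 was detected on none, nor were MAGEA9, PAGE1, PAGE2, SSX1, SSX2, CTAG1B and CT45A1.

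Markers of other cell types were read as a check of the culture. Mesenchymal markers were detected in 12 of 15 (80.0%), led by vimentin VIM (13.66 ± 0.05), S100A4 (12.49 ± 0.01), smooth muscle actin ACTA2 (12.24 ± 0.03), N-cadherin CDH2 (12.06 ± 0.01), CD44 (11.39 ± 0.06) and ALCAM (10.89 ± 0.05), and THY1, PDGFRB and NGFR were detected on none. Detected members of the other lists numbered 3 of 14 haematopoietic, 2 of 9 osteoclast, 1 of 9 endothelial, 2 of 11 epithelial, 2 of 8 adipocyte, 4 of 12 chondrocyte, 3 of 11 muscle and 3 of 11 neural and liver markers, all shares under the 55.0% of all genes.

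Many defining genes of these lineages were at background on all 3 arrays, and some were not. The leukocyte phosphatase PTPRC was detected with none of its 4 probes. PECAM1 and CDH5 of endothelium, CDH1 and the keratins KRT5, KRT8, KRT18, KRT19 and KRT14 of epithelium, MYOD1 and DES of muscle, ADIPOQ and PLIN1 of fat, GFAP and APOA1 of brain and liver, and COL2A1 and ACAN of cartilage were detected on none. The detected members included the epithelial adhesion gene EPCAM, which read 10.70, 10.67 and 10.57 with all 3 of its probes detected, the cartilage link protein HAPLN1 (12.66, 12.77 and 12.78), the muscle genes MYL1 (11.52, 11.48 and 11.53) and CKM (10.56, 10.64 and 10.71), and the adipocyte factor PPARG (9.61, 9.43 and 9.41). CD68, a lysosomal protein of macrophages and other cells, stood at 9.47 ± 0.10. Osteoclast protease CTSK, also made by mesenchymal cells, stood at 8.07 ± 0.09, and endothelial VWF read 7.43, 7.05 and 7.30. Cardiac actin ACTC1 (8.80 ± 0.09) and the adipocyte hormone LEP (7.43 ± 0.24) were detected too. So were the remaining cartilage markers, SOX9 with COL11A2 (7.38 ± 0.01) and CNMD (7.01 ± 0.24). Of the neural and liver list, the synaptic gene SNAP25 (6.98 ± 0.12) and the plasma protein genes AFP (6.41 ± 0.20) and ALB (5.98 ± 0.19) passed on all 3 arrays. CD14 (6.13 ± 0.06), CD79A (5.99 ± 0.28), CLDN4 (5.77 ± 0.12) and ATP6V0D2 (5.72 ± 0.17), of the haematopoietic, epithelial and osteoclast lists, passed nearer the threshold.

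**Figure D5:**
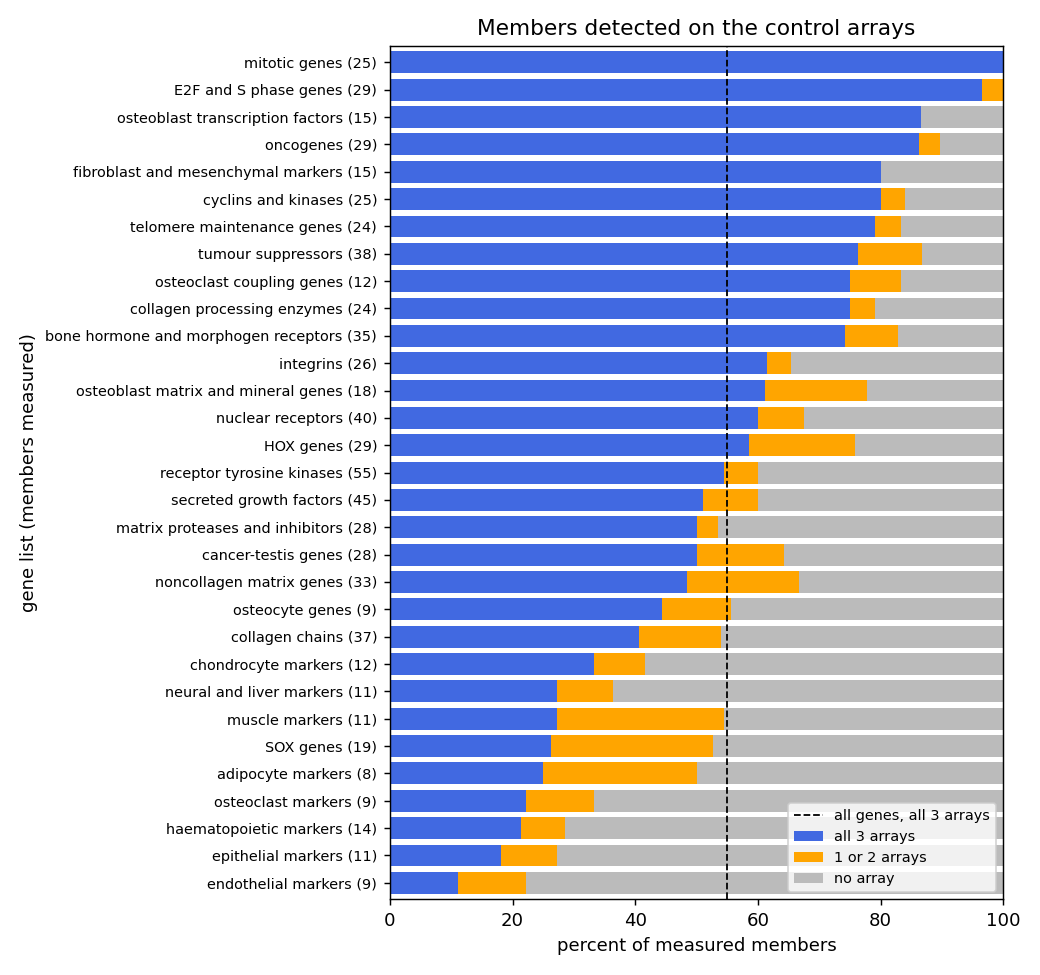
For each gene list, with the number of members measured in brackets, the bars give the percent of members detected on all 3 control arrays, on 1 or 2 and on none, and the dashed line marks the 55.0% of all genes detected on all 3. The mitotic, S phase and osteoblast transcription factor lists lie at the top, at 100, 96.6 and 86.7%, and the endothelial markers at the bottom, at 11.1%.

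Among the 25 genes of highest signal were the ribosomal protein genes RPL41 (14.40 ± 0.07), RPL38, RPS12, RPL18, RPL6, RPS29 and RPS16 and the translation factors EEF1A1 (14.38 ± 0.12) and EIF3E, with the related pseudogenes RPL13AP20 and RPSAP9, whose probes may read the parent genes. Of 77 ribosomal protein genes measured 71 were detected, and 18 were among the 100 highest. TPT1, the actin-binding TMSB4X, the actins ACTB and ACTG1, the ATP synthase subunit ATP5F1B, the chaperone HSP90AA1, the annexin partner S100A10 and the pseudogene ANXA2P2 were also among the 25. Beside ALPL and LUM, the thrombin receptor gene F2R read 14.08, 14.31 and 14.39.

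Some of these places rest on 1 probe of several. LAIR1, an inhibitory receptor of leukocytes, read 14.18 ± 0.16 with 1 probe, while its other probe, at 5.18, was detected on no array. ORC6, a subunit of the origin recognition complex, read 14.17 with 1 probe and 9.45 with the other, F2R 14.26 and 9.01, and the zinc finger gene ZNF674 had 1 probe, at 14.19. Over the array, 4435 detected genes had 2 or more probes, and in 2362 of them (53.3%) at least 1 probe was not detected on all 3 arrays. The brightest and dimmest probes were 4 or more apart on the log2 scale in 1242 of these genes.

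The classes of genes on the array were detected at different shares. Of 17773 protein-coding genes 59.0% were detected on all 3 arrays, of 798 long noncoding RNA genes 24.4%, of 279 small nucleolar RNA genes 36.6% and of 561 microRNA genes 3.92%. The 55.0% over all genes, set beside the lists above, includes these noncoding classes. Of the promoter windows of detected genes, 68.8% were rich in CpG, taken as at least 55% G and C and an observed over expected CpG ratio of at least 0.65, against 39.6% of all 35116 windows in the table, and the share was 59.3, 70.1, 72.0 and 73.9% in 4 equal bins of rising level. Windows were at hand for 81.6% of the detected genes. For genes detected on no array they were at hand for 66.0%, too few for this check, which is void there. The TATA motif, as TATAAA on either strand, stood in 5.66% of the windows of detected genes and in 10.7% of all. The 35116 windows include many of genes not measured here, so they are no like-for-like background for the detected genes. Shares over the measured genes alone were not computed.

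Detection on the control arrays was repeated on the arrays the rule did not use. Of the 11029 genes detected on all 3 control arrays, 10560 (95.7%) had a probe detected on all 6 arrays of the doxycycline and recovery groups, and 4 had no probe detected on any of them. Those 4, named after their values were seen, were RD3 (5.80 ± 0.36), MIR203A (5.62 ± 0.23), RTL5 (5.52 ± 0.12) and FBXO36 (5.51 ± 0.10), all close to the threshold. Of the 7591 genes detected on no control array, 6599 (86.9%) were detected on none of the 6 others and 24 (0.316%) on all of them. No difference in level between the groups was tested here.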

How the data were processed

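Total RNA from SaOS2 cells, labelled with Cy3 per the labels' protocols, was read on Illumina bead arrays, as the probe names and column headers show. One deposited table holds the bead-averaged intensity of 47322 probes per array without normalization, per the file headers. On the control arrays 30.2% to 32.5% of these values were below 0, which shows a background subtraction. Which software made it is not given in these sources. Beside each signal the authors gave a detection p-value, which moves in steps of 1 in 770. The authors' processed intensity values, normalized between arrays on the linear scale, served as an alternative. Signal columns carry short codes (C1 to C3 for control); each had a rank correlation of 1 with the column named for its sample in the processed table and at most 0.962 with any other. Of per-sample columns 0 were left out.

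Probes with 1 gene symbol numbered 30112, with several 8 and with none 17202; 30073 were found in RefSeq by gene identifier, and none needed a newer symbol. Signals of the 3 control arrays were corrected with the normexp model of limma 3.58.1 in R 4.3.3, which used the detection p-values, adding 16 as offset, and their log2 values were quantile normalized over these 3 arrays. The steps were tested on simulated data. Further steps used Python 3.11.15 (pandas 2.3.3, numpy 2.4.6, matplotlib 3.10.9).

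The arrays and the 31 gene lists were chosen with earlier results of these data known. Of 743 symbols in the lists 697 were measured, and the other 46 were not analysed here. Named genes were the 4 markers, the 25 highest, all members of the osteoblast, osteocyte and tumour suppressor lists, up to 6 highest and 8 undetected members of each other list, the genes at the threshold and the 6 of largest SD; further names were chosen after their values were seen. Provisional names, such as those with LOC or orf, were passed over among the 25 highest, the threshold genes and the 6 of largest SD. No group was tested against another, so no adjusted p-value is given. The number of arrays limits the precision. Alternatives were other thresholds, offsets, normalizations and probe rules, and leaving out each array.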

Additional observations from a re-analysis of the deposited data

Results flagged for a closer look

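The array also carries 17210 probes without 1 gene name, which entered none of the gene counts. Of these, 4151 (24.1%) had a detection p under 0.05 on all 3 control arrays, against 48.4% of the probes with 1 gene name. Their signals reached a level of 14.33, as high as that of ALPL at 14.31, so the counts of detected genes leave out part of the signal on these arrays.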

How the results depend on the processing

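The number of genes detected on all 3 control arrays (11029) was 9893 at a detection p under 0.01 and 11028 with only the brightest probe of each gene, and it ranged from 11173 to 11259 when 1 array was left out. Genes detected on no array (7591) numbered 9349 at the stricter threshold, 7597 with the brightest probe and 7812 to 7954 without 1 array. List members detected (421) numbered 386 and 421, and 427 to 430 without 1 array. Of 155 list counts under an alternative 2 moved by over 1.5 times, osteoclast and epithelial markers falling from 2 members each to 1 at the stricter threshold.

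Of the 25 highest genes, 25 remained among the 25 highest with an offset of 50, without background correction, after normalization over all 9 arrays, with the authors' processed values and among detected genes alone, 24 without normalization between arrays, 20 to 21 when 1 array was left out, and 12 when a gene's probes were averaged. Of 14 genes whose rank was followed, averaging the probes moved 13 beyond the spread between arrays, RUNX2 from rank 1312 to 3726, CDKN2A from 3018 to 5795 and LUM from 12 to 325; no other alternative moved any of them that far. The median SD of 0.112 was 0.438 without normalization between arrays, 0.1 with an offset of 50, 0.111 over 9 arrays and 0.077 to 0.098 without 1 array. At a detection p under 0.01, chosen after seeing the data, 9644 genes were detected on all 3 control arrays and all 6 others, and the CpG-rich share was 70.8%. No paired analysis was possible because no result comes from a test between groups.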

Other observations

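Genes of antigen presentation and surface proteins that have been targets of therapy in bone tumours were read from 2 lists added after the data were seen. Of 17 antigen presentation genes measured 11 (64.7%) were detected on all 3 control arrays, against 55.0% of all genes. The class I light chain B2M (13.67 ± 0.05, rank 117) and heavy chain HLA-B (12.50 ± 0.18) had the highest signals, HLA-F stood at 11.69 ± 0.12, the peptide transporter TAP1 at 11.40 ± 0.05 and the immunoproteasome subunits PSMB8 and PSMB9 at 9.78 ± 0.18 and 8.47 ± 0.22. The class I and class II activators NLRC5 and CIITA, the class II chains HLA-DRB1 and HLA-DPA1 and the checkpoint ligand CD274 were detected on none, while the class II chain HLA-DRA was detected with both probes, at 8.01 ± 0.10. Alleles of HLA genes differ from the probe sequences in ways not analysed here. Of 16 surface proteins measured 13 (81.2%) were detected, among them CD99 (11.58 ± 0.05), CD47 (11.56 ± 0.14), GPNMB (10.73 ± 0.07), the ganglioside synthase B4GALNT1 (9.65 ± 0.05) and CD276, or B7-H3 (9.30 ± 0.01, with 1 of 4 probes). The synthase ST8SIA1, which acts before B4GALNT1 in the making of the ganglioside GD2, was detected with neither of its probes.

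The neighbours of RB1 in the RefSeq gene order were also read. ITM2B, the protein-coding gene before it, stood at 13.25 ± 0.03 (rank 216) with 1 of 2 probes, and MED4, the next one out, at 10.33 ± 0.14. LPAR6, which RefSeq lists next after RB1, read 4.63 ± 0.07 and was detected on none of the control arrays or of the 6 others, as was RB1. RCBTB2, the gene after LPAR6, was detected at 6.61 ± 0.08, and farther out SUCLA2 (10.91 ± 0.16), ESD (12.18 ± 0.08) and FNDC3A (8.68 ± 0.17) were detected. Other genes around it were not: LRCH1, HTR2A, MLNR and CDADC1 were detected on no control array, RUBCNL and CYSLTR2 on 1 and CAB39L on 2. Over all genes 37.9% were detected on none, and a cause for the lack of signal of RB1 or LPAR6 was not tested.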
